A study of Aspergillus nidulans with 8 samples.

Results

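Transcript levels of 5 genes of stress and nutrient bZIP transcription factors, napA (ANID_07513), atfB (ANID_08643), jlbA (ANID_01812), rsmA (ANID_04562) and meaB (ANID_04900), were followed on 8 arrays of the filamentous fungus Aspergillus nidulans. They were chosen by identifier from the 10550 genes on the array and not by a cut-off on measured values, though earlier results of these data were known. All 5 had a probe well above background on every array and were among the 8633 genes tested. The comparison asked which of them differ between a strain deleted for atfA and its reference strain, and how each behaves under 3 stresses.

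The deletion strain, TNJ 92.4, has the genotype pyrG89, AfupyrG+, pyroA4, DatfA::pyroA, veA+. The reference strain, THS30.3, carries pyrG89, AfupyrG+, pyroA+ and veA+, so both strains share the pyrG89 mutation complemented by AfupyrG and the veA+ allele. Submerged cultures of 16 h were left untreated or given 2 mM amphotericin B (AmB), 0.2 mM CdCl2 or 10 mM Congo Red for 0.5 h. These doses are printed as the labels give them and were not checked against another source. AmB is an antifungal polyene directed at membrane ergosterol, CdCl2 supplies the toxic metal cadmium, and Congo Red is a dye that disturbs the cell wall. Each combination of strain and condition had 1 single-colour array of RNA pooled from 3 cultures, so nothing is replicated, and precision is limited by how few arrays there are. The deletion is represented by 1 strain. Every p-value below tests a fitted term against the departure of these arrays from the fitted model, not against the spread between cultures.

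bZIP factors contact DNA through a basic region and pair through a leucine zipper, some with themselves and some with other family members. AtfA, an ATF/CREB-type bZIP factor that acts with the stress MAP kinase SakA, is needed for the stress tolerance of A. nidulans conidia. NapA is a Yap1-type regulator of the oxidative stress response, and AtfB is a second ATF/CREB-type factor, known in Aspergillus oryzae for the stress tolerance of conidia. JlbA is a Jun-like factor whose transcript is induced by amino acid starvation in A. nidulans, RsmA is a Yap-like regulator of secondary metabolism that acts through aflR, and MeaB takes part in nitrogen metabolite repression.

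The strain labels of the scanner files went against the deleted gene. The atfA probe gave processed signals of 7604, 3271, 9708 and 8666 in untreated, AmB, CdCl2 and Congo Red cultures on the 4 arrays labelled deletion. On the 4 arrays labelled reference its signals were 2.55, 2.30, 3.09 and 2.38, none well above background. The authors' deposited value table, on a log2 scale, ran the other way: its atfA values were 6.25, 6.19, 6.26 and 6.22 in the deletion columns and 13.66, 14.60, 13.71 and 14.29 in the reference columns. For each column of that table, the closest array carried the other strain label, at r between 0.971 and 0.990 across probes, against 0.910 to 0.952 for the array of its own label. The table is taken as processed values of the same arrays, not as a second measurement. The strain labels are given below as "labelled deletion", where atfA was bright, and "labelled reference", where it was not above background. Every direction between strains is given by the label, and read by the atfA signal it is the opposite. Differences are labelled deletion minus labelled reference, and the value table's differences, deletion columns minus reference columns, have the opposite sign in most pairs.

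The AmB arrays were dimmer than the others. Processed signals had a 75th percentile of 261.9 on the labelled deletion array and 335.6 on the labelled reference array under AmB, and between 1057.5 and 1881 on the other 6. The arrays detected 7689 to 8478 probes each. The summed level of 6 conidial genes, on the log2 scale relative to that percentile, ranged from -1.11 to -0.17 on the arrays labelled deletion and from 1.17 to 1.97 on those labelled reference. Of these conidial genes 2 were above background on all 8 arrays, rodA and pksP. The spore hydrophobin gene rodA ran from -2.15 to -0.62 on the arrays labelled deletion and from 1.03 to 1.70 on those labelled reference. The labels overlapped for pksP, which ran from -2.61 to -1.36 on the arrays labelled deletion and from -3.44 to -0.82 on those labelled reference. The list did not move as one, since abaA ran from -6.11 to -2.48 on the arrays labelled deletion and from -6.58 to -4.95 on those labelled reference, and was above background on 6 arrays. All 4 markers of growing mycelium were above background on every array, with summed levels of 6.68 to 7.24 on the arrays labelled deletion and 6.47 to 6.67 on those labelled reference. No marker was at 0, and the part of these levels in the results below was not tested. In bulk RNA, fewer cells of a type and less RNA per cell cannot be told apart.

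None of the 5 genes passed the test for a difference between strain labels, against 1.86% of all genes tested (161 of 8633, adjusted p at or under 0.05 by limma with Benjamini-Hochberg adjustment). The lowest unadjusted p among them was 0.0798, for atfB. The groups of 4 arrays overlapped for all 5, whereas 6.12% of genes had every labelled deletion array higher and 4.61% had every one lower. The share of all genes called was 1.01% as higher and 0.857% as lower. Among the members atfB had the lowest adjusted p for the strain difference, and jlbA was called for strain dependence under AmB. Levels below are log2 signals relative to the array's 75th percentile, given in the order untreated, AmB, CdCl2 and Congo Red. Levels of different genes come from different probes and were not compared with each other.

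**Figure D1:**
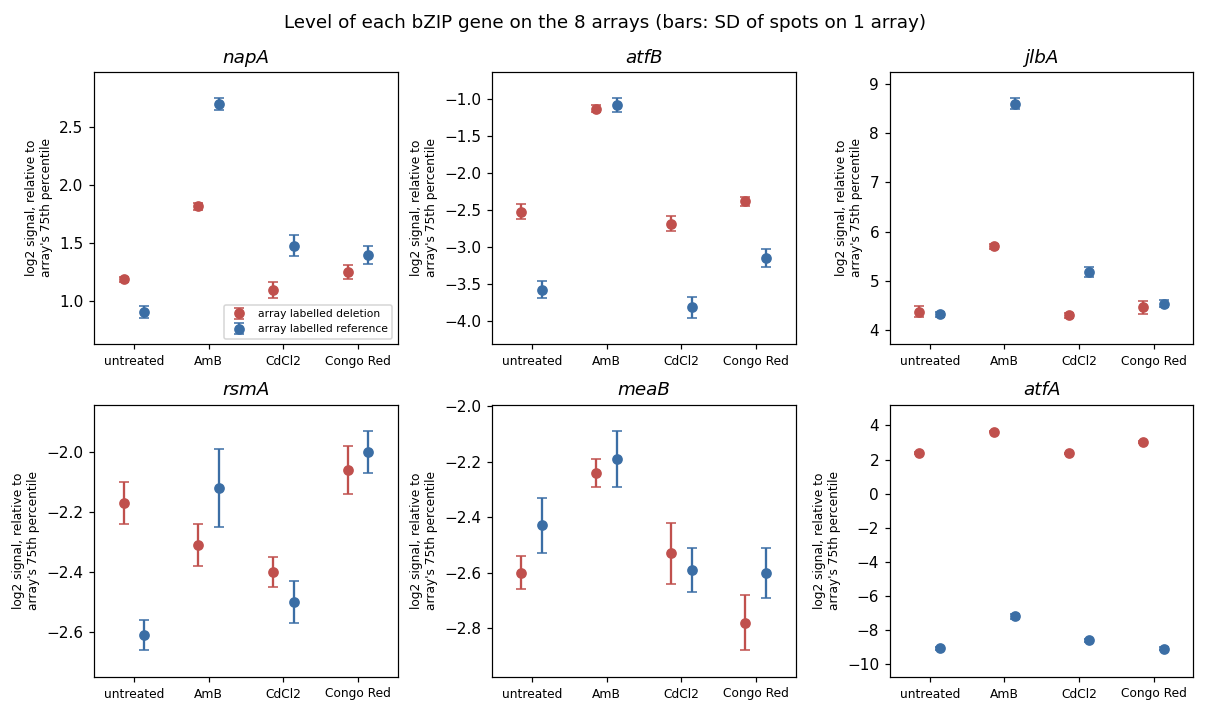
Level of each bZIP gene as log2 signal relative to the array's 75th percentile (y axis) in the 4 conditions (x axis), with 1 point per array for each strain label and bars for the SD of the spots on that array. The AmB arrays of napA, atfB and jlbA stand above their other arrays, and jlbA stood at 5.70 on the AmB array labelled deletion against 8.60 on the one labelled reference.

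The Yap1-type factor gene napA stood at 1.19, 1.82, 1.10 and 1.25 on the arrays labelled deletion. On the arrays labelled reference it stood at 0.91, 2.70, 1.48 and 1.40. Both AmB arrays were above the other 6, which lay between 0.91 and 1.48 with the strain labels intermixed. Its processed signals were 3299, 928, 4028 and 2507 on the arrays labelled deletion and 2580, 2182, 3297 and 3418 on those labelled reference. These signals were lowest on the AmB array under each label, so napA stood higher under AmB only after scaling. The spots of the probe differed by an SD of 0.02 to 0.09 on 1 array. The fitted strain difference was -0.24 ± 0.31 on the log2 scale (SE, limma with strain, treatment and slide as terms, adjusted p = 0.886), and the labelled deletion was the lower in 3 of 4 conditions. In the authors' deposited table, napA stood at 12.16, 13.57, 12.61 and 12.61 in the deletion columns and at 12.29, 12.93, 12.33 and 12.50 in the reference columns.

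The ATF/CREB-type gene atfB gave levels of -2.52, -1.13, -2.68 and -2.38 on the arrays labelled deletion, against -3.57, -1.08, -3.81 and -3.15 on the arrays labelled reference. Without AmB, all 3 arrays labelled deletion were above all 3 labelled reference, a pattern that 14.7% of genes tested shared. Under AmB the labels met, and the whole groups therefore overlapped. The differences in single pairs of arrays were 1.04, -0.05, 1.13 and 0.77 on the log2 scale. The Congo Red pair lay on the slides in the opposite order to the other 3 pairs, and the part of the slide in these single-pair differences was not tested. The fitted difference over all 8 arrays was 0.74 ± 0.33 (SE, limma, adjusted p = 0.484), and it did not pass. With both AmB arrays and the slide term left out together it was 0.98 and passed (adjusted p = 0.0231), and without either AmB array alone, with the slide term kept, it was 0.93 (adjusted p = 0.0261). With these changes the fit called 995 and 1185 genes, against 161 over all 8 arrays.

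The atfB probe gave processed signals of 253, 119, 294 and 203 on the arrays labelled deletion and of 116, 159, 85 and 146 on those labelled reference. In the authors' deposited table, atfB stood at 8.31, 10.19, 8.19 and 8.45 in the deletion columns, against 8.90, 10.11, 8.89 and 9.11 in the reference columns. There the deletion columns were the lower in 3 of 4 conditions, by 0.60, 0.70 and 0.65 without AmB, and under AmB they were higher by 0.07. In the table as on the arrays, atfB was higher without AmB wherever atfA was bright. The fit on the table gave -0.47 (limma, adjusted p = 0.263).

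The Jun-like gene jlbA had levels of 4.37, 5.70, 4.30 and 4.46 on the arrays labelled deletion. Its levels on the arrays labelled reference were 4.32, 8.60, 5.18 and 4.53. The order of the 8 arrays ran from both AmB arrays through the labelled reference CdCl2 array down to the other 5, which lay between 4.30 and 4.53 with neighbours closer than the SD of 0.05 to 0.13 among spots of 1 array. The processed signal was 13582 on the AmB array labelled deletion, against 130047, not saturated, on the one labelled reference. The fitted strain difference was -0.66 ± 0.60 (SE, limma, adjusted p = 0.802), and the labelled deletion was the lower in 3 of 4 conditions. The authors' deposited table gave jlbA 15.39, 18.15, 16.24 and 15.65 in the deletion columns and 15.40, 16.34, 15.46 and 15.54 in the reference columns.

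The secondary metabolism regulator rsmA had levels of -2.17, -2.31, -2.40 and -2.06 on the arrays labelled deletion and of -2.61, -2.12, -2.50 and -2.00 on those labelled reference. On this scaling no condition and no label stood apart, and the widest gap between labels was in untreated cultures, at 0.43. Its fitted strain difference was 0.02 ± 0.26 (SE, limma, adjusted p = 0.994). The nitrogen regulator meaB had levels of -2.60, -2.24, -2.53 and -2.78 on the arrays labelled deletion, against -2.43, -2.19, -2.59 and -2.60 on those labelled reference. Its 8 levels spanned 0.59 in all, and its strain difference was -0.12 ± 0.23 (SE, limma, adjusted p = 0.94). In the authors' deposited table rsmA ran from 9.05 to 9.43 in the deletion columns and from 9.11 to 9.42 in the reference columns, and meaB from 8.95 to 9.15 in the deletion columns and from 8.78 to 9.22 in the reference columns. For these genes the missed threshold does not show that the strains had equal levels, as the SEs show.

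Taken pair by pair, the strain labels differed at least 2-fold for atfB in untreated and in CdCl2-treated cultures, with the labelled deletion higher, and for jlbA under AmB, with a difference of -2.90 on the log2 scale. A difference of that size in either direction was found for 16.4% of genes tested in untreated cultures, 32.8% under AmB, 19.2% under CdCl2 and 12.3% under Congo Red. No member reached it under Congo Red. The pairs without AmB of napA, rsmA and meaB lay between -0.38 and 0.43.

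**Figure D2:**
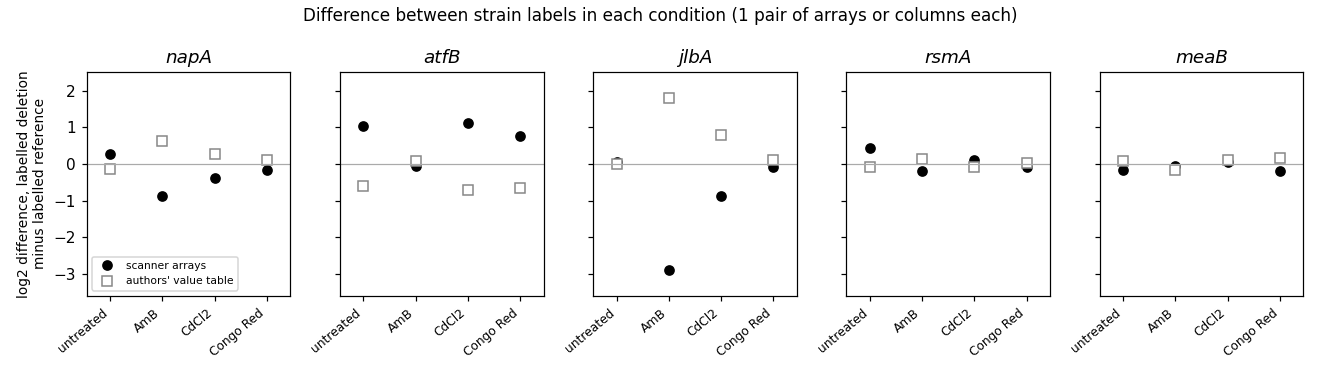
Log2 difference between strain labels, labelled deletion minus labelled reference (y axis), in each condition (x axis) for the 5 genes, from the scanner files and from the authors' value table, with 1 pair of arrays or columns per point and no error bar since no pair is replicated. The atfB points without AmB are at 1.04, 1.13 and 0.77 for the scanner files and at -0.60, -0.70 and -0.65 for the table, and jlbA under AmB is at -2.90 for the scanner files and 1.81 for the table.

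Under AmB, atfB was the single member to pass the test over both strain labels. The AmB response is the fitted difference between the AmB arrays and the untreated arrays. For atfB it was 1.94 ± 0.41 (SE, limma, adjusted p = 0.0479), a call that 11.8% of all genes tested received, 8.64% as higher and 3.15% as lower. Under quantile scaling the 746 higher and 272 lower calls became 530 and 480. The call of atfB was lost without the labelled deletion untreated array (2.19, adjusted p = 0.113), without the labelled reference untreated array (1.68, adjusted p = 0.347) and without either CdCl2 array (adjusted p = 0.0805). The atfB difference between the AmB and untreated arrays, which shared a slide within each label, was 1.39 under the label deletion and 2.48 under the label reference.

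The AmB response of jlbA was 2.80 ± 0.74 and did not pass (SE, limma, adjusted p = 0.0705). It passed with normexp background correction (2.36, limma, adjusted p = 0.00987), without the filter on dim probes (adjusted p = 0.0378), without the slide term (adjusted p = 0.0432) and in the authors' deposited table (1.85, adjusted p = 0.0357). Those settings called 3993, 3319, 1992 and 2140 genes in that order, against 1018 in the main fit. Leaving out 1 array moved the response of jlbA between 1.56 and 4.05. It was 3.78 without the labelled deletion untreated array, 4.05 without the labelled deletion AmB array and 1.56 without the labelled reference AmB array. For napA the response was 1.21 ± 0.38 (SE, limma, adjusted p = 0.099). It passed in the authors' deposited table (1.02, limma, adjusted p = 0.0355), where 2140 genes were called. It was 1.62 without the labelled deletion AmB array, and leaving out 1 array moved it between 0.76 and 1.66. rsmA had 0.17 ± 0.31 (SE, limma, adjusted p = 0.712) and meaB 0.31 ± 0.28 (SE, limma, adjusted p = 0.471). Both depended on the background correction: with normexp rsmA was at 0.97 (limma, adjusted p = 0.0568), and meaB was at 1.07 and passed (adjusted p = 0.0294). That setting called 3526 genes as higher, against 746 in the main fit.

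In single pairs of arrays, AmB against untreated, atfB and jlbA were at least 2-fold higher under both strain labels, as were 13.8% of genes. napA was at 0.64 under the label deletion, short of that fold, and at 1.79 under the label reference. Differences of at least 2-fold upward were found for 17.4% of genes under the label deletion and for 27.5% under the label reference. rsmA differed from its untreated array by -0.14 under the label deletion and by 0.49 under the label reference. meaB differed by 0.37 under the label deletion and by 0.25 under the label reference. With normexp these differences were 0.48 under the label deletion and 1.46 under the label reference for rsmA, and 0.83 under the label deletion and 1.32 under the label reference for meaB, so both passed 2-fold under the label reference. The share of all genes past that fold with normexp was not counted.

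The AmB level of jlbA over its untreated level was 2.51-fold under the label deletion, where atfA was bright, and 19.4-fold under the label reference, where it was not above background. A difference at least as high was seen for 12.8% of genes on the arrays labelled deletion and for 4.25% on those labelled reference. The size depended on the scaling. Under the label reference the log2 difference of jlbA was 4.28 on the 75th percentile, 3.05 with quantile scaling and 3.69 with normexp. Under the label deletion these were 1.33, 1.04 and 1.03. Strain dependence was tested as the strain difference under AmB against its mean over the other 3 conditions. For jlbA this term was -2.60 ± 0.47 on the log2 scale (SE, limma, adjusted p = 0.0459), and it was the single member called, against 5.31% of all genes tested, 4.46% of them lower and 0.846% higher. With quantile scaling the calls over all genes were 667 higher and 746 lower, against 73 higher and 385 lower on the 75th percentile.

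The call of jlbA depended on the setting. It was kept with normexp (-2.27, limma, adjusted p = 0.00781), where 1253 genes were called, against 458 in the main fit. With only probes above background on all 8 arrays it was also kept (-2.60, limma, adjusted p = 0.0284), where 650 were called. The term was -2.89 without either CdCl2 array and -2.49 without either Congo Red array, and the call was kept in both. In the settings that follow the term did not pass. The term was -1.67 with quantile scaling (adjusted p = 0.0683), -2.60 without the filter on dim probes (adjusted p = 0.067) and -2.43 without either untreated array (adjusted p = 0.186). It was 1.51 in the authors' deposited table (limma, adjusted p = 0.0616), where AmB minus untreated was 2.76 in the deletion columns and 0.94 in the reference columns. In both sources the larger AmB difference of jlbA stood beside the low atfA values. For the other members the term was -0.79 ± 0.39 for napA (SE, limma, adjusted p = 0.233), -1.03 ± 0.34 for atfB (adjusted p = 0.118), -0.36 ± 0.36 for rsmA (adjusted p = 0.533) and 0.05 ± 0.33 for meaB (adjusted p = 0.93).

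**Figure D3:**
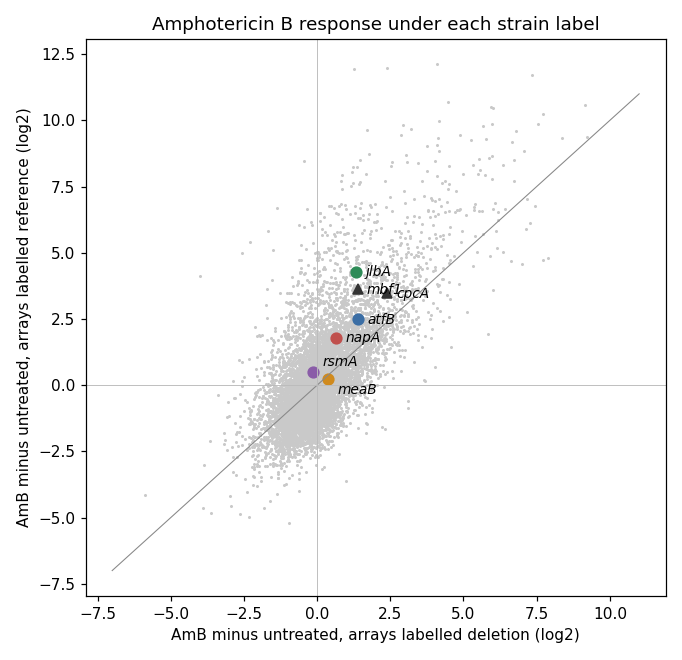
AmB response in log2 units on the arrays labelled deletion (x axis) and on those labelled reference (y axis), with 1 grey point per tested gene and the 5 bZIP genes in colour, each from single arrays. jlbA lies at 1.33 and 4.28, atfB at 1.39 and 2.48 and napA at 0.64 and 1.79, while rsmA and meaB lie near the origin.

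CdCl2 gave no call among the members or among all genes tested (0% called by limma, 114 genes at an unadjusted p under 0.05), and the members' fitted responses lay between -0.20 for atfB and 0.40 for jlbA. On the arrays labelled deletion, CdCl2 minus untreated was -0.06 for jlbA and -0.09 for napA. On the arrays labelled reference the same differences were 0.86 for jlbA and 0.56 for napA. The term for strain dependence under CdCl2 called no gene (0%, limma, 154 genes at an unadjusted p under 0.05). In the authors' deposited table the CdCl2 difference of jlbA was 0.85 in the deletion columns and 0.06 in the reference columns. The table's reference untreated column correlated best with the labelled deletion CdCl2 array (r = 0.971, against 0.969 for the labelled deletion untreated array), and its reference CdCl2 column with the labelled deletion untreated array (r = 0.974, against 0.966). If these columns were exchanged, every CdCl2 difference in the reference columns would change sign, and the AmB and Congo Red differences there would use another untreated column. This was not settled by the files.

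Congo Red gave 2 calls among all genes tested (0.0232%, limma) and none among the members. Their fitted responses were 0.27 for napA, 0.28 for atfB, 0.15 for jlbA, 0.36 for rsmA and -0.17 for meaB. The Congo Red and untreated arrays of a strain label lay on different slides, so for Congo Red the strain dependence and the slide cannot be told apart. The Congo Red difference of rsmA was 0.11 under the label deletion and 0.61 under the label reference. No member changed at least 2-fold under CdCl2 or Congo Red under either label. That fold was reached by 2.28% of genes under the label deletion and 7.41% under the label reference for CdCl2, and by 5.58% under the label deletion and 8.58% under the label reference for Congo Red.

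Across the 8 arrays the profiles of napA and jlbA ran together, with Pearson's r = 0.97 over all 8 arrays and 0.78 over the 6 without AmB. These values are descriptions over arrays that share scaling and treatments, and the AmB pair carries much of them. The genes most like jlbA among 7104 candidates were AN6411 (r = 0.993), AN1298 and AN10757 (both r = 0.992). Among genes with a symbol they were mbf1 (r = 0.992), whose yeast orthologue is a coactivator of the amino acid starvation factor Gcn4, akuA (r = 0.986), a Ku protein of DNA end joining, and atg1 (r = 0.982), an autophagy kinase. mbf1 was also among the 3 most like napA (r = 0.988), with hel10 (r = 0.995) and the ubiquitin-conjugating enzyme gene ubc2 (r = 0.977).

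The AmB response of mbf1 was 1.39 under the label deletion and 3.62 under the label reference, and its term for strain dependence was -1.79 (limma, adjusted p = 0.0909), which did not pass. The genes most like atfB were AN7137 (r = 0.992), AN6434 (r = 0.989) and AN8271 (r = 0.986), and with a symbol pksP (r = 0.971), listed among the conidial markers above, amdX (r = 0.967) and gldB (r = 0.966). meaB was most like AN5882 (r = 0.966) and, with a symbol, dph3 (r = 0.941). For rsmA the closest gene was AN8020 at r = 0.899, the lowest best match of the 5.

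**Figure D4:**
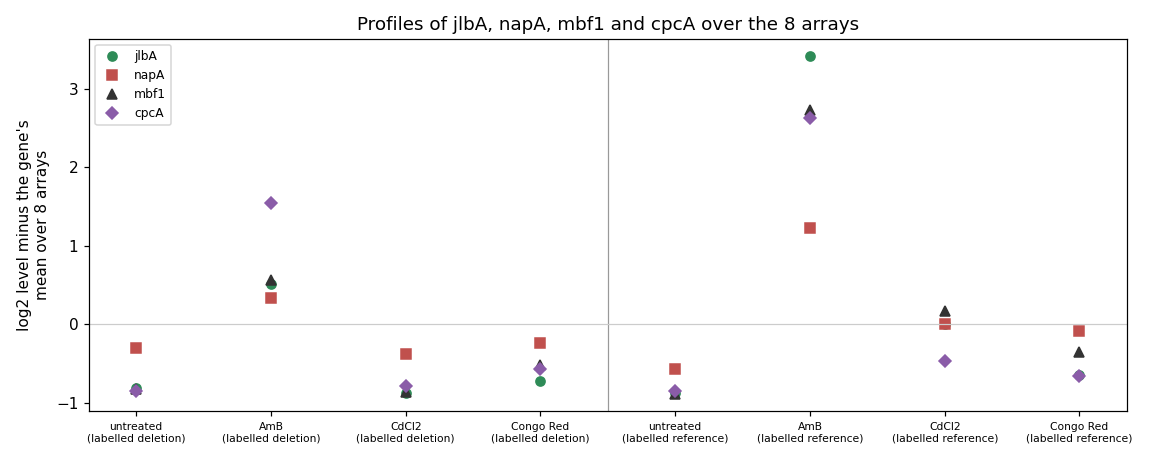
Profiles of jlbA, napA, mbf1 and cpcA over the 8 arrays (x axis) as log2 level minus the gene's own mean over the 8 arrays (y axis), 1 array per point. All 4 genes are highest on the AmB array labelled reference, and the labelled deletion AmB array comes second for each.

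Other bZIP genes were described beside the members. Of 6 on a list, the 1 that differed between strain labels was atfA itself, which the deletion sets, so it is not counted as a result. cpcA, the A. nidulans counterpart of yeast Gcn4 and regulator of amino acid synthesis, differed by -0.19 (limma, adjusted p = 0.923). AmB called 2 of the 6 as higher, cpcA and atfA, against 8.64% of all genes, and 1 as lower, against 3.15%. atfA was measured above background only on the 4 arrays labelled deletion, so it entered the test through 1 label. Its AmB call is not counted as a result, and its fitted AmB response has no measured size. cpcA rose by 2.94 ± 0.38 (SE, limma, adjusted p = 0.0221), by 2.40 under the label deletion and by 3.48 under the label reference. The lower one was AN4394 (limma, adjusted p = 0.0206), whose size is not given because the probe was above background on 3 of 4 arrays labelled deletion. hacA, the bZIP factor of the unfolded protein response, differed by 0.17 between labels (limma, adjusted p = 0.908).

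Genes of the processes these factors serve were counted in the same way. Of 8 antioxidant genes tested, 0 differed between strain labels, and the median strain difference of the 7 above background on all arrays was -0.30, against -0.03 for all such genes. The nearest was the catalase gene cat1, at 1.72 ± 0.29 (SE, limma, adjusted p = 0.0748), followed among genes above background on all arrays by fgaCat, at -0.74 (adjusted p = 0.346). AmB called 1 of the 8 as higher, AN7388 (limma, adjusted p = 0.0225), against 8.64% of all genes, and the list's median AmB response was 0.68, against -0.07 for all genes. AN7388 was above background on 4 arrays labelled deletion and 1 labelled reference, so its response has no measured size under the label reference. The probe of catA, the conidial catalase gene, was below that limit throughout.

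Of 6 genes of amino acid control 0 differed between strain labels, and AmB called cpcA alone, against 8.64% of all genes as higher. argB, of arginine synthesis, had an AmB response of 1.62 (limma, adjusted p = 0.0921), and the list's median AmB response was 0.17. Of 8 nitrogen genes 0 differed between strain labels, with the largest values at -0.53 for AN4376 and 0.43 for the glutamine synthetase gene glnA. AmB called 2 of them as lower, against 3.15% of all genes, named after their values were seen: the nitrate reductase gene niaD fell by 2.33 (SE 0.36, limma, adjusted p = 0.0289) and the nitrate transporter gene crnA fell by 2.49 (SE 0.33, adjusted p = 0.0231). The list's median AmB response was -1.05, while meaB itself differed by 0.31.

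Of 12 secondary metabolism genes tested, none that was above background under both labels differed between them. AN7821 was above background on 3 arrays labelled deletion and on 0 labelled reference, so it entered the test through 1 label and its call is not counted as a result. AN7822 had the largest strain difference of those above background on all arrays, at 2.34 ± 0.41 (SE, limma, adjusted p = 0.0836), and did not pass. AmB called 4 of the 12 as higher, against 8.64% of all genes, and none as lower, against 3.15%: AN7805, AN7811, AN7817 and AN7825, named after their values were seen, with fitted responses of 1.77 to 2.52. AN7811 and AN7817 were above background on 7 of 8 arrays. The probe of AN7820 was below background limits on all 8 arrays, and rsmA differed by 0.17 under AmB.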

How the data were processed

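The authors deposited 1 scanner file per array with, per the file headers, processed intensity and median and background intensity per spot. The submitters' processing notes name Agilent Feature Extraction 12.0.3.1. A table of log2 values was also deposited by the authors, with column medians of 9.24 to 9.26. How it was normalized is not given here by any source, and its strain direction opposes that of the scanner files. It was fitted separately, without a slide term. Coordinates are left out because the files name no build.

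Control spots and outlier spots (1.46% to 1.90% of spots) were left out. For each probe, log2 processed signals were averaged over its 4 spots and each array's 75th percentile was subtracted. Genes well above background on at least 2 arrays were tested. The differences were fitted with limma 3.58.1 in R 4.3.3 (lmFit, eBayes) on the 8 arrays, with terms for treatment, strain label and slide and 2 residual degrees of freedom. The slide was read from the barcode in the file headers. Slide 1 held the labelled deletion untreated, AmB and CdCl2 arrays and the labelled reference Congo Red array, and slide 2 the other 4. Strain dependence was an added term without the slide. P-values were adjusted by Benjamini-Hochberg over all 8633 genes at 0.05. A call in 1 pair of arrays means at least 2-fold and carries no test.

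Identifiers were matched to the RefSeq table of assembly ASM1142v1. Of 10550 probes 9697 matched and 776 had a symbol, and some of those symbols were carried over from other species. That table lists napA as yap1, has no symbol for the loci of atfB, jlbA and meaB, and gives the symbol atfB to another locus, AN6849; the member names used here come from the list of members.

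The genes named are the 5 members, atfA, the 3 genes most like each member with and without the need for a symbol, and at most 4 genes of each of 5 linked lists by absolute strain difference, with exceptions said where they occur. The members and lists were chosen with earlier results of these data known. The fit was tested on simulated data with 200 changed genes. Alternatives were normexp background correction, quantile scaling, other filters on dim probes, the value table, no slide term, and leaving out arrays. The files hold no mean signal, so normexp used the median signal, which departs from the design as written.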

Additional observations from a re-analysis of the deposited data

Results flagged for a closer look

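Among the 4 arrays labelled deletion, the AmB array of jlbA stood apart from the other 3: its gap to the nearest, divided by the range, was 0.887, above the critical value of Dixon's test for 4 values. The 4 arrays are 4 conditions and not replicates, 10 such groups were examined, and chance flags about 1 in 20 groups. The jlbA term for strain dependence under AmB was -2.60 on the log2 scale (limma, adjusted p = 0.0459), with adjusted p-values from 0.00781 to 0.186 over its alternatives. The AmB arrays had a 75th percentile of 261.9 under the label deletion and 335.6 under the label reference, against 1057.5 to 1881 on the others, and the part of this dimness in the jlbA values was not tested.

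Some members' responses had opposite signs under the strain labels, each with 1 array per label, and these differences were not tested pair by pair. The CdCl2 responses under the label deletion were small, at -0.09 for napA, -0.06 for jlbA, -0.23 for rsmA and 0.07 for meaB. In the authors' deposited table, as labelled, the CdCl2 difference of each of these genes had the same sign in the deletion and reference columns. The CdCl2 response under the label deletion minus that under the label reference was -0.65 for napA, -0.93 for jlbA, -0.33 for rsmA and 0.23 for meaB. The same difference in the AmB response of rsmA was -0.63. With normexp the AmB responses of rsmA had the same sign, at 0.48 under the label deletion and 1.46 under the label reference.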

How the results depend on the processing

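Replicates could not be paired because the labels give no replicate numbers and each group has 1 array. The strain fit and the single pairs compared the strain labels within conditions. The spread rests on 2 residual degrees of freedom, and the AmB arrays were dim. Causes of the changes below were not tested.

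Genes called for the strain difference numbered 161, and 84 with only probes above background on all 8 arrays, 345 in the value table, 530 without the slide term, 995 without both the slide term and the AmB arrays, and 129 to 1185 leaving out 1 array. AmB calls numbered 1018, and 3993 with normexp, 3319 without a filter, 2140 in the value table, 1992 without the slide term, and 138 to 4425 leaving out 1 array. Congo Red calls numbered 2, and 6 with normexp, 22 without the slide term and the AmB arrays together, 0 with quantile scaling, the stricter filter, the value table or no slide term, and 0 to 84 leaving out 1 array. Calls of AmB strain dependence numbered 458, and 1253 with normexp, 1413 with quantile scaling, 299 without a filter, 1013 in the value table, and 0 to 1045 leaving out 1 array. Of 50 single-pair values 8 passed 2-fold, and 5 in the value table. Fits without a Congo Red array could not be fitted with the slide term.

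In the value table atfA ran the other way by label, so a strain difference of opposite sign there has the same direction by atfA. The members' strain differences in the table were 0.22 for napA, -0.47 for atfB, 0.67 for jlbA, 0 for rsmA and 0.05 for meaB. Normexp gave -0.08 for rsmA. The atfB difference passed at 0.98 without the slide term and the AmB arrays together and ran from 0.63 to 0.93 leaving out 1 array, as rsmA did from -0.06 to 0.10. By label, the table also had the opposite sign for the single pairs of atfB (-0.60 untreated, -0.70 CdCl2) and jlbA (1.81 AmB). The same held for the AmB strain term of napA (0.55), atfB (0.72), jlbA (1.51), rsmA (0.18) and meaB (-0.27). Normexp put the AmB strain term of meaB at -0.48. The CdCl2 strain term turned to 0.07 for napA, -0.31 for atfB and -0.09 for rsmA in the table, and to -0.28 for jlbA with quantile scaling. The CdCl2 response turned to 0.01 for rsmA and 0.05 for meaB with quantile scaling and to 0.10 for rsmA in the table.

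Leaving out 1 array, the CdCl2 response ran from -0.21 to 0.69 for napA, -0.52 to 0.12 for atfB, -0.57 to 1.37 for jlbA, -0.30 to 0.18 for rsmA and -0.13 to 0.05 for meaB. The Congo Red response ran from -0.17 to 0.72 for napA and -0.82 to 1.12 for jlbA, the AmB response of rsmA from -0.07 to 0.41, and the CdCl2 strain term from -0.43 to 0.14 for napA, -0.87 to 0.61 for jlbA and -0.08 to 0.24 for rsmA.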

Other observations

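Genes that neighbour the members in the reference table were looked at after values were seen. Beside meaB, pex19, a peroxisome biogenesis gene, had an AmB response of 2.24 ± 0.29 (SE, limma, adjusted p = 0.0228), against 0.31 for meaB. Beside atfB, AN8644 had an AmB response of 2.26 ± 0.29 (SE, limma, adjusted p = 0.0224), near that of atfB, and a strain difference of -0.04. AN8642, on the other side of atfB, was above background on 5 of 8 arrays. Its call as higher under the label deletion (limma, adjusted p = 0.048) is therefore not counted as a result, and its size is not given. Beside jlbA, the AmB response of gpi10 was 0.52 under the label deletion and 0.51 under the label reference, against 1.33 and 4.28 for jlbA.

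Over the 6 arrays without AmB the levels of atfB and atfA correlated at r = 0.91, and over all 8 arrays at 0.48. These are descriptions: atfA was not above background on the arrays labelled reference, so the first value mainly restates the split of atfB by label.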
